A study of Mus musculus with 4 samples.

Results

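The genes described here carry the transforming growth factor beta (TGF-beta) signal from ligand to nucleus in mouse prostate tumor cell lines and normal prostate. The set was named gene by gene: the ligands Tgfb1, Tgfb2 and Tgfb3, the receptors Tgfbr1, Tgfbr2 and Tgfbr3, the signal transducer Smad3, the inhibitory Smads Smad6 and Smad7, and the induced matrix protein gene Tgfbi. Every array probe whose platform symbol was one of these 10 names was taken. This gave 14 probes for 9 of the 10 genes, among 15967 genes with a named probe, and Smad6 was not analysed here. Probes of 8 genes lay above background on at least 1 array, and the single probe of Smad7 did not.

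TGF-beta ligands are secreted in a latent complex and, once released, bind the type II receptor Tgfbr2, which recruits and phosphorylates the type I receptor Tgfbr1; the co-receptor Tgfbr3 (betaglycan) presents ligand, Tgfb2 above all. The activated receptor phosphorylates Smad2 and Smad3, which enter the nucleus with Smad4, and Smad6 and Smad7 oppose the signal. In the prostate TGF-beta is known for restraining epithelial growth and for inducing matrix production and a contractile state in stromal cells.

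RNA from 4 samples was hybridised, each on 1 Illumina bead array. T23 and T1525 are tumor cell lines from prostate tumors of C57Bl/6 TRAMP mice aged 30 weeks, with 1 array each; the TRAMP transgene drives SV40 tumor antigens from the probasin promoter in prostate epithelium. Normal prostate of WT C57Bl/6 mice aged 18 weeks gave 2 arrays, normal 1 and normal 2. Labels name neither separate cultures of a line nor separate mice behind the normal arrays. SDs and p-values thus measure the spread between these arrays, which may be technical for the normal pair. Where both lines form a class, the spread also holds the difference between T23 and T1525. Tumor, culture and age cannot be told apart, and in tissue fewer cells of a type cannot be told apart from less RNA per cell.

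All levels are log2 of the deposited normalized intensity, and a level at or below 6.69 counts as background. The arrays had 12499 to 12563 of 24613 probes above background, and having only 4 arrays limits precision. Values of normal prostate are given for normal 1 and then normal 2. The labelled prostate epithelial origin was checked against 7 measured luminal markers: 2 lay above background in T23, 4 in T1525 and 6 on each normal array. Krt8, a luminal keratin, read 5.98 in T23 and 14.12 in T1525, against 13.55 and 14.06 in normal prostate, and Cdh1 (E-cadherin) 6.37, 10.96, 10.67 and 10.74 in the same order, so both were at background in T23. The secretory genes Pbsn and Tgm4 were at background in both lines. The 2 luminal markers above background in T23 are none of the genes named here. Of 5 basal epithelial markers, 1 lay above background in T23, 3 in T1525 and 5 on each normal array. Their summed intensities were 572 in T23 and 14204 in T1525, against 10836 and 23014 in normal prostate. Of 9 fibroblast markers, 7 lay above background in T23, 3 in T1525 and 9 on each normal array, with summed intensities of 34178 in T23 and 881 in T1525, against 25412 and 50350 in normal prostate. Leukocyte markers summed to 527 in T23 and 717 in T1525, against 18563 and 44119 in normal prostate, and endothelial markers to 895, 928, 7322 and 17083. The part these differences in cell type markers play in the results below was not tested.

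Promoters are shown for Tgfbi, Tgfbr2 and Tgfb2 because these genes, like Tgfbr3, were higher in T23 than in T1525 by 1 or more on the log2 scale. Promoters of 6 of the genes were taken from the promoter table, by symbol and with 1 chromosome left out. Each sequence is from RefSeq (GRCm38.p6), 5′ to 3′ on the gene's strand, with 250 bases before and 50 after the annotated start. They lie at chr13:56609336-56609635 on the plus strand for Tgfbi, at chr9:116175314-116175613 on the minus strand for Tgfbr2 and at chr1:186705940-186706239 on the minus strand for Tgfb2. Capitals mark matches on either strand to any of 4 motifs: the AP-1 site TGACTCA, the Smad palindrome GTCTAGAC, the GC box GGGCGG and the TATA box TATAAA.
Tgfbi: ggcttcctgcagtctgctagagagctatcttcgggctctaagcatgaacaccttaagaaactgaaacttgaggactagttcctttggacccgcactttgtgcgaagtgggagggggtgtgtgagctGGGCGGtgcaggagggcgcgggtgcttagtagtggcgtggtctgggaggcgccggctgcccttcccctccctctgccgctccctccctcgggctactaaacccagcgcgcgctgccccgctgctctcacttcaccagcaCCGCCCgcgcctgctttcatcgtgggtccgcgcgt
Tgfbr2: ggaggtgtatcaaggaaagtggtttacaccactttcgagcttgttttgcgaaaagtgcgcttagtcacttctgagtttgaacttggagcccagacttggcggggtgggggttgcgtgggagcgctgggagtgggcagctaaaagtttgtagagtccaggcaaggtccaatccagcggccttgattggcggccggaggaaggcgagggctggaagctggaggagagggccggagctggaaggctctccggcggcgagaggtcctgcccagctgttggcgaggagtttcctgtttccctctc
Tgfb2: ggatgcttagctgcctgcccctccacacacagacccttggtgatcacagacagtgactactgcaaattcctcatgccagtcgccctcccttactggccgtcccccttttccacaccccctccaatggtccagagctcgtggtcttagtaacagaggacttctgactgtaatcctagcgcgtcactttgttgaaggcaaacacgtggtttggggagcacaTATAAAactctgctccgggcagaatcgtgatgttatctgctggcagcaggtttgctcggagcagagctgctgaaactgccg
The Tgfbi promoter holds 2 GC boxes, at -124 and 15 from the start, the Tgfb2 promoter 1 TATA box at -31, and the Tgfbr2 promoter none of the 4 motifs. Among 32851 promoters of the same length, 35.7% held a GC box, 13.6% a TATA box, 5.2% the AP-1 site and 0.213% the Smad palindrome. A GC content of 63.3% in Tgfbi, 59.0% in Tgfbr2 and 54.3% in Tgfb2 stood beside a median of 52.7% over all these promoters. Sequence matches are descriptions and say nothing of binding.

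The tumor lines were first compared with normal prostate as a class. With T23 and T1525 as 2 samples against the 2 normal arrays, limma called 0 of the 8 measured genes, against 11.4% of all 10903 genes tested, and 0 of the 8 had an unadjusted p under 0.05, against 32.2% of all genes. A p that misses the threshold with so few arrays does not show that levels were alike. The spread in this fit holds the difference between the lines, so a gene whose lines lay far apart could hardly be called. The 8 genes had a median difference of -0.01, against 0.11 over all genes. Without T23 or without T1525, the class fit only sets the other line against the normal arrays, as the single-line fits below do. The Tgfbr3 class difference was then -1.11 without T23 and 1.34 without T1525. The lines lay on opposite sides of both normal samples for 3 of the 8 genes, Tgfb2, Tgfbr2 and Tgfbr3, against 13.7% of all genes. Both lines lay above both normal samples for 1 gene, Smad3 (32.3% of all genes), and below them for 1, Tgfbr1 (26.4% of all genes).

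**Figure D1:**
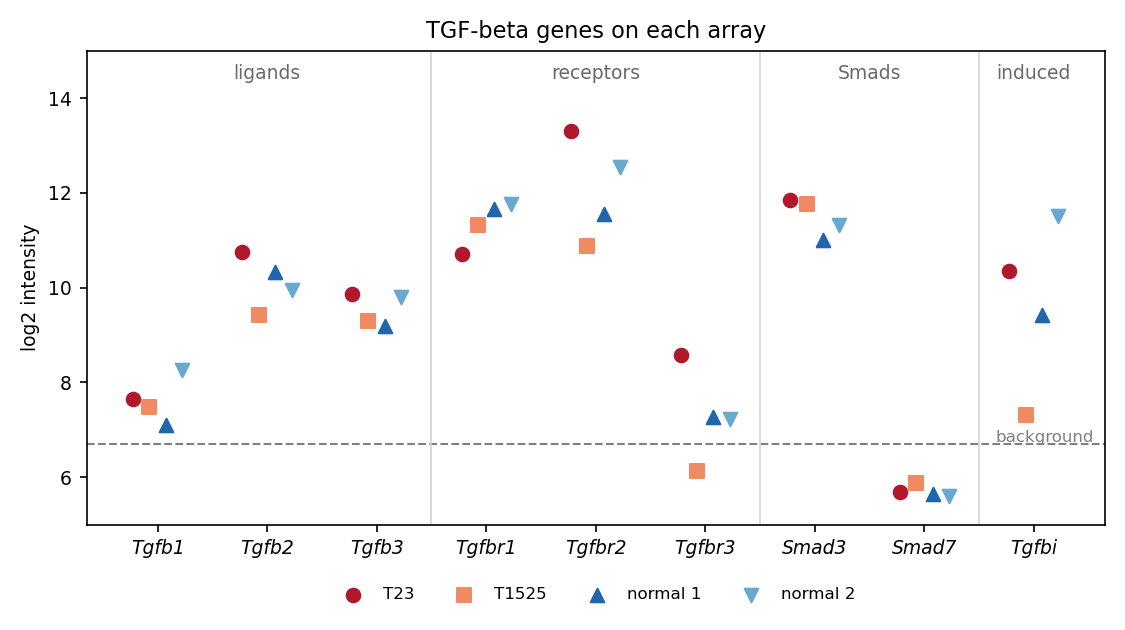
Log2 intensity (vertical axis) of 9 genes, 1 point per array, with 1 probe per gene and the background level of 6.69 as a dashed line; levels of different genes come from different probes and are not comparable. T1525 is the lowest array for Tgfb2, Tgfbr2, Tgfbr3 and Tgfbi, and Smad7 is below background on all 4 arrays.

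Values of a single line against normal prostate come from a fit with 1 residual degree of freedom, that of the 2 normal arrays, and each line is assumed to vary as they do. Among the ligands, Tgfb2 read 10.74 (T23) and 9.42 (T1525), with 10.33 and 9.96 on the normal arrays. T23 was thus above and T1525 below both normal samples. The difference between the lines was 1.33 on the log2 scale, or 2.51-fold, while the normal pair differed by 0.38. Against normal prostate the differences were 0.60 in T23 (limma, SE 0.27, adjusted p = 0.172) and -0.73 in T1525 (SE 0.27, adjusted p = 0.120), and neither passed.

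Tgfb1, the most widely expressed ligand of the family in most tissues, read 7.65 for T23 and 7.48 for T1525, compared with 7.10 and 8.27 for the normal pair. Both lines lay between the normal samples, which themselves differed by 1.17. Tgfb3 read 9.87 in T23 and 9.29 in T1525, against 9.20 and 9.80 in normal prostate, so its groups overlapped too. The class differences were -0.12 for Tgfb1 (limma, SE 0.47, adjusted p = 0.866) and 0.08 for Tgfb3 (-0.15 under cyclic loess scaling; SE 0.36, adjusted p = 0.888). Their signs depended on the normal arrays: without normal 1 they were -0.71 for Tgfb1 and -0.22 for Tgfb3, and without normal 2 they were 0.46 and 0.38.

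The receptor genes held the calls of single lines. Tgfbr3 read 8.58 (T23) and 6.13 (T1525), with 7.26 and 7.22 on the normal arrays. It was above both normal samples in T23 and at background in T1525, and the normal pair differed by 0.04. Tgfbr3 rose in T23 by 1.34 (limma, SE 0.22, adjusted p = 0.0239), a 2.54-fold difference. It fell in T1525 by a fitted 1.11 (SE 0.22, adjusted p = 0.0334), of which background allows a bound of at least 1.46-fold lower. With background values set to the threshold the T1525 difference was -0.55 and no longer passed (adjusted p = 0.0673; range over its alternatives 0.0251 to 0.0673). T23 was at least 3.71-fold above T1525.

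Tgfbr2, the ligand-binding receptor, read 13.30 for T23 and 10.87 for T1525, compared with 11.55 and 12.54 for the normal pair. The T23 intensity was 5.38 times that of T1525, a log2 difference of 2.43 against 0.99 between the normal samples. T23 lay above both normal samples, with a difference of 1.25 from their mean (limma, SE 0.48, adjusted p = 0.128), and T1525 below both, with -1.18 (SE 0.48, adjusted p = 0.143), and neither passed. A second probe, annotated to another Tgfbr2 transcript, read 8.36 in T23 and 7.03 in T1525, against 6.46 and 7.03 in normal prostate. Normal 1 was at background on that probe, where Tgfbr2 was called higher in T23 than in normal prostate, at least 2.82-fold (limma, adjusted p = 0.0373), and T1525 lay between the normal samples. The third Tgfbr2 probe was at background on all 4 arrays.

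Tgfbr1, the kinase that phosphorylates Smad2 and Smad3, had a different order of arrays: 10.70 (T23) and 11.32 (T1525), with 11.67 and 11.77 on the normal arrays. Both lines lay below both normal samples, and T23 was lower than T1525 (T23 minus T1525, -0.62). Tgfbr1 fell in T23 by 1.02 (limma, SE 0.22, adjusted p = 0.0422), a level 2.02-fold lower, while the difference of -0.40 in T1525 did not pass (adjusted p = 0.240). Another Tgfbr1 probe, near background at 6.71 for T23 and 7.37 for T1525, compared with 6.40 and 6.38 for the normal pair, went the other way. Both normal arrays were at background there, and the call in T1525 (limma, adjusted p = 0.0430) carries a bound of at least 1.60-fold higher. Averaged over both probes, the T23 difference was -0.35 (adjusted p = 0.275), so the Tgfbr1 call rests on the choice of probe. The third probe was at background on all 4 arrays.

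Smad3 showed the closest agreement of the lines. It read 11.86 in T23 and 11.76 in T1525, against 11.003 and 11.33 in normal prostate. Both lines were above both normal samples, with means of 11.81 ± 0.07 for the lines and 11.17 ± 0.23 for normal prostate (SD, n = 2 each). The class difference of 0.64 did not pass (limma, SE 0.25, adjusted p = 0.174), and neither did 0.69 in T23 (adjusted p = 0.123) nor 0.59 in T1525 (adjusted p = 0.163). Smad7, the inhibitory Smad that is itself induced by TGF-beta, read between 5.61 and 5.89 and was not above background on any array.

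Tgfbi, which encodes a secreted matrix protein named for its induction by TGF-beta, spread most. It read 10.35 (T23) and 7.30 (T1525), with 9.42 and 11.52 on the normal arrays. T1525 was the lowest array, and T23 lay between the normal samples. The intensity was 1301 in T23 and 158 in T1525, 8.23-fold apart, and the normal samples differed by 2.10 on the log2 scale. The difference of -3.17 in T1525 missed the threshold (limma, SE 0.94, adjusted p = 0.0760) and that of -0.13 in T23 was far from it (adjusted p = 0.924). A second Tgfbi probe gave the same order, with 8.97 for T23 and 6.54 for T1525, compared with 7.59 and 9.55 for the normal pair. T1525 was at background on that probe, where T23 was at least 4.86-fold above it. T23 lay 0.40 above the mean of the normal pair there, against -0.13 on the first probe. In normal 2 the leukocyte, fibroblast, endothelial and basal marker sums were also above those of normal 1, as given above. Luminal and smooth muscle marker sums were slightly lower in normal 2. The part of cell type in the Tgfbi difference was not tested.

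**Figure D2:**
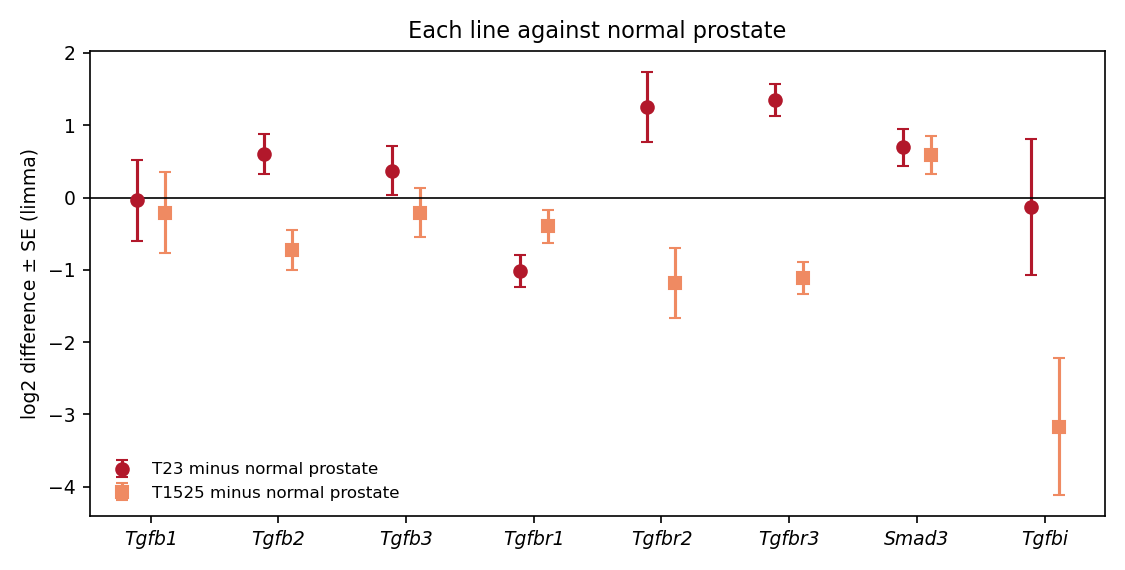
Log2 difference of each line from the mean of the normal pair (vertical axis) with the limma SE as bars, for the 8 genes above background. T23 lies above and T1525 below 0 for Tgfb2, Tgfb3, Tgfbr2 and Tgfbr3, both lie above 0 for Smad3, and both lie below 0 for Tgfb1, Tgfbr1 and Tgfbi.

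Counted by line, limma called 2 of the 8 genes in T23 against normal prostate, Tgfbr3 higher and Tgfbr1 lower, beside 30.4% of all genes. In T1525 it called 1 of the 8, Tgfbr3, beside 31.3% of all genes. An unadjusted p under 0.05 was reached by 2 of the 8 in T23 (46.8% of all genes) and by 2 in T1525 (46.4%). With 8 genes, nothing about the set as a whole is read from these counts. Both comparisons use the same 2 normal arrays.

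The lines were then compared directly, without a test because each has 1 array. Of the 8 genes, 4 differed by 1 or more on the log2 scale, against 20.2% of all genes, and all 4 (Tgfb2, Tgfbr2, Tgfbr3 and Tgfbi) were higher in T23, a direction held by 9.92% of all genes. The difference had a median of 0.95 over the 8 genes and -0.03 over all genes. Tgfb1, Tgfb3 and Smad3 differed by 0.17, 0.58 and 0.10. With 1 array a line, these differences have no replicate check. The 8 genes were also chosen with earlier results of these data known, so the shares beside them are descriptions only.

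Pathway lists and cell type marker lists were chosen with earlier results of these data known, so counts from them are descriptions only. The wider pathway was described by 104 other genes in 9 lists, of which 84 had a probe above background. In the class comparison limma called 4 of them higher and 8 lower, beside 5.3% and 6.09% of all genes. Without T23 or without T1525, the class fit only sets the other line against the normal arrays, as the single-line counts below do. None of the 12 calls held without normal 1 or normal 2. Over all probes limma then also called 0, with 2507 and 2266 at an unadjusted p under 0.05. Against normal prostate, T23 had 20 higher and 14 lower of the 84 (15.5% and 14.9% of all genes) and T1525 13 higher and 24 lower (16.5% and 14.8% of all genes).

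Of 10 genes of ligand latency and activation, 1 rose in the class comparison, beside 5.3% of all genes. Itgav, the alpha v subunit of integrins that release TGF-beta from its latent complex, read 8.74 in T23 and 8.33 in T1525, against 7.16 and 6.999 in normal prostate. Both lines were above both normal samples, a 2.74-fold rise (limma, SE 0.26, adjusted p = 0.0485). Between the lines, 5 of the 10 were higher in T23 by 1 or more and 1 in T1525, beside 9.92% and 10.3% of all genes. Thbs1, thrombospondin 1, an activator of latent TGF-beta, read 10.93 (T23) and 7.09 (T1525), with 6.15 and 6.77 on the normal arrays, and rose in T23 (limma, adjusted p = 0.00776). Ltbp2, a matrix protein of the latent TGF-beta binding family, read 10.63 in T23 and was at background in T1525, with 9.12 in normal 1 and 11.06 in normal 2. Ltbp1, which tethers latent TGF-beta to the matrix and was singled out after its values were seen, read 11.37 for T23 and 8.02 for T1525, compared with 9.08 and 9.73 for the normal pair.

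Among the other ligands of the superfamily 1 gene rose and 2 fell, of 9 measured, beside 5.3% and 6.09% of all genes. Inhbb, the activin beta B subunit, read 12.33 in T23 and 11.10 in T1525, against 8.01 and 8.38 in normal prostate, and rose 11.4-fold (limma, SE 0.50, adjusted p = 0.0332). Gdf10, a relative of the bone morphogenetic proteins (BMPs), was at background in both lines, with 5.89 in T23 and 5.91 in T1525, against 11.45 and 12.10 in normal prostate, at least 33.8-fold lower (adjusted p = 0.01001). Lefty1, an inhibitor of Nodal, was at background in both lines and at least 1.80-fold lower (adjusted p = 0.0381). Bmp4 read 9.78 (T23) and 6.96 (T1525), with 9.32 and 9.36 on the normal arrays, and Bmp3 read 9.42 in T23, 8.63 in normal 1 and 8.20 in normal 2 and was at background in T1525.

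Among 10 other receptors 1 gene fell and 0 rose, beside 6.09% of all genes lower and 5.3% higher. Bmpr1b, a type I BMP receptor, was at background in both lines, with 6.38 in T23 and 5.86 in T1525, against 11.59 and 10.45 in normal prostate, lower in the lines by at least 20.1-fold and called by limma (adjusted p = 0.0199). Eng, endoglin, a co-receptor best known in endothelium, read 8.84 in T23 and was at background in T1525, with 9.04 in normal 1 and 9.84 in normal 2. Acvr2b, a type II activin receptor, had the opposite order of lines, 8.39 in T23 and 10.75 in T1525, with 10.24 in normal 1 and 10.13 in normal 2. Of the other Smads, 0 of 3 were called in the class comparison and 1 of 3 had an unadjusted p under 0.05. The shares of all genes were 11.4% and 32.2%. Smad2, the partner of Smad3, read 8.85 for T23 and 9.997 for T1525, compared with 8.63 and 8.80 for the normal pair and rose in T1525 by 1.28 (limma, adjusted p = 0.0281). The shared partner Smad4 read between 11.85 and 12.43 on all 4 arrays.

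Extracellular antagonists fell in 3 of 8 cases and rose in 0, beside 6.09% of all genes lower and 5.3% higher. Fst, follistatin, which binds activins, read 7.43 in T23 and 6.90 in T1525, against 8.77 and 8.94 in normal prostate, a 3.23-fold fall (limma, adjusted p = 0.0443). The BMP antagonist genes Sostdc1, at least 3.44-fold lower, and Nbl1, 3.07-fold lower, fell as well (adjusted p = 0.0281 and 0.0309). The small proteoglycans that bind TGF-beta separated the lines: Dcn, decorin, read 13.34 (T23) and 6.26 (T1525), with 14.23 and 15.16 on the normal arrays, and was thus at background in T1525 only. Bgn, biglycan, read 12.86 for T23 and 6.25 for T1525, compared with 9.9999 and 11.32 for the normal pair. Grem1, a BMP antagonist singled out after its values were seen, read 12.76 in T23 and 6.38 in T1525, against 6.23 and 6.24 in normal prostate, above background in T23 only.

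Of 14 intracellular regulators, 1 rose and 0 fell in the class comparison, beside 5.3% and 6.09% of all genes. Strap, which binds the TGF-beta receptors and dampens their signal, read 12.24 (T23) and 12.42 (T1525), with 10.98 and 10.97 on the normal arrays, a 2.57-fold rise (limma, SE 0.22, adjusted p = 0.0417). Tgif1, a corepressor of Smads, read 11.06 for T23 and 12.03 for T1525, compared with 10.27 and 10.26 for the normal pair and rose in T1525 (adjusted p = 0.0144). Ppm1a, a phosphatase that acts on Smads, read 10.51 in T23 and 11.79 in T1525, against 11.29 and 11.07 in normal prostate. Between the lines, 0 of these 14 were higher in T23 by 1 or more and 1 was higher in T1525. The shares of all genes were 9.92% and 10.3%.

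Genes known to be induced by TGF-beta were listed with earlier results of these data known, so their counts describe and do not test. Of the 19 measured, 13 were higher in T23 by 1 or more and 2 in T1525. The shares of all genes were 9.92% and 10.3%. With background readings left as they were, the median difference was 2.27, against -0.03 over all genes. That median is the value of Tagln, which was at background in T1525 and has a bound of at least 1.31. Lox, which crosslinks collagen, read 14.80 (T23) and 6.42 (T1525), with 9.64 and 11.43 on the normal arrays, at least 276-fold higher in T23 than in T1525. Acta2, smooth muscle actin, read 14.72 for T23 and 6.40 for T1525, compared with 15.74 and 15.61 for the normal pair, at least 261-fold higher in T23. Against normal prostate, limma called 9 of the 19 higher and 4 lower in T23 and 2 higher and 7 lower in T1525, beside 15.5% and 14.9% of all genes in T23 and 16.5% and 14.8% in T1525. Of the 19 genes, 4 (Acta2, Tagln, Col1a1 and Col1a2) are also on the marker lists of fibroblasts or smooth muscle. Of the other 15, 9 were higher in T23 by 1 or more. Each of these marker lists names only 9 genes, and the part of cell type in the other 15 was not tested. Of the fibroblast markers, 7 of 9 were higher in T23 by 1 or more, beside 9.92% of all genes, with the sums given above. The smooth muscle markers summed to 29515 in T23 and 1154 in T1525, against 137362 and 131974 in normal prostate.

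**Figure D3:**
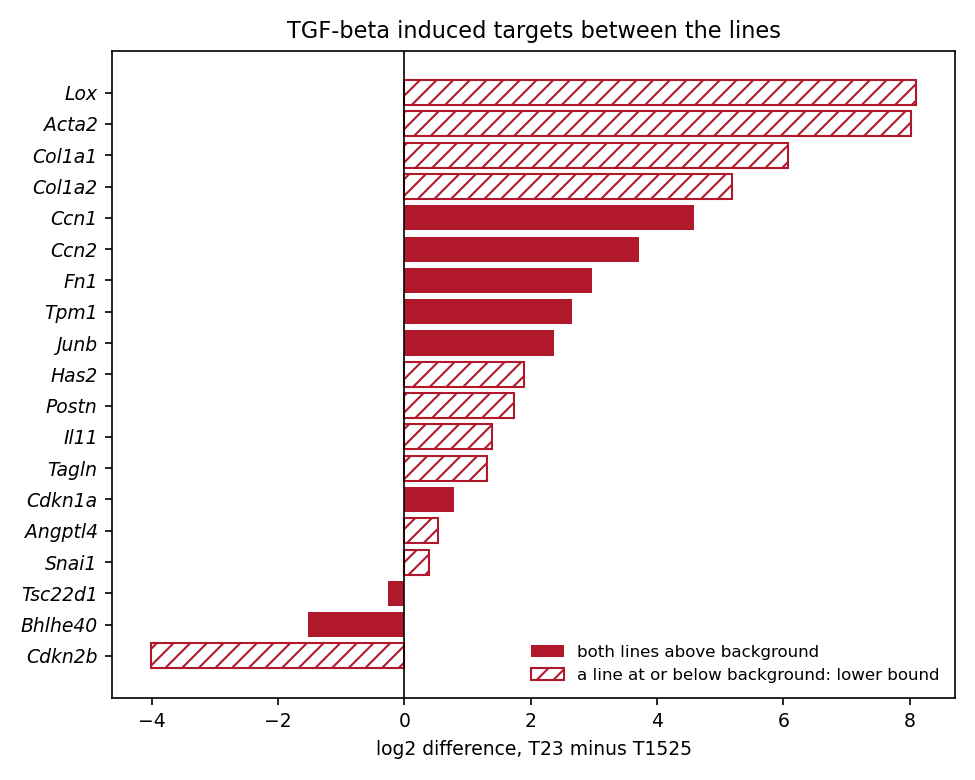
Log2 difference T23 minus T1525 (horizontal axis) of the 19 measured TGF-beta induced genes, 1 bar each; hatched bars are lower bounds in size because a line was at or below background, and each line has 1 array. There are 13 bars at 1 or more, led by Lox and Acta2, 2 at -1 or below, Cdkn2b and Bhlhe40, and Tsc22d1 lies at -0.26.

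In the class comparison, 1 of the 19 rose and 2 fell, beside 5.3% and 6.09% of all genes. Tsc22d1, a leucine zipper factor induced by TGF-beta, read 10.74 in T23 and 11.003 in T1525, against 9.17 and 8.72 in normal prostate, a 3.796-fold rise (limma, SE 0.28, adjusted p = 0.0343). Tagln, transgelin of smooth muscle, fell at least 21.3-fold and Angptl4, a secreted lipase inhibitor, at least 5.98-fold, with T1525 at background (adjusted p = 0.0432 and 0.0379). The opposite order between the lines was found in Cdkn2b, an inhibitor of cyclin-dependent kinases that TGF-beta induces in epithelial cells, singled out after its values were seen. It was at background in T23 and read 10.71 in T1525, 8.79 in normal 1 and 10.08 in normal 2.

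The Id genes, targets of BMP signals, were called in 0 of 4 cases in the class comparison. An unadjusted p under 0.05 was reached by 1 of 4. The shares of all genes were 11.4% and 32.2%. Of the 4, 2 were higher in T1525 than in T23 by 1 or more, beside 10.3% of all genes. Id2 read 9.36 (T23) and 11.89 (T1525), with 9.76 and 10.41 on the normal arrays. Id4 was at background in T23, with 8.72 in T1525, against 8.66 and 8.81 in normal prostate. Of 7 kinases and adaptors of the non-Smad branches, 0 were called in the class comparison and 1 had an unadjusted p under 0.05. These compare with the same shares of all genes, 11.4% and 32.2%. Traf6, a ubiquitin ligase recruited by TGF-beta receptors, read 8.70 for T23 and 10.68 for T1525, compared with 8.81 and 8.91 for the normal pair, and Pard6a, a polarity protein that Tgfbr2 phosphorylates, 8.37, 9.17, 7.93 and 8.06 in the same order. Both rose in T1525 (limma, adjusted p = 0.0141 and 0.0318).

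Genes with the most similar array profile were taken for the 3 genes that spanned 2 or more on the log2 scale, by the root mean square difference between profiles centred on each gene's mean over the 4 arrays. For Tgfbr2 these were Pdgfrb, a platelet-derived growth factor receptor (0.0385), Cmtm3 (0.0846) and Lbh (0.0863). For Tgfbr3 they were Cc2d2a (0.0715), Apol10b (0.0921) and Tulp4 (0.101). For Tgfbi they were Hsd11b1, an enzyme that regenerates active glucocorticoid (0.225), Fxyd5 (0.296) and Ccdc80 (0.29999). In T1525 Tgfbr3, Pdgfrb, Lbh, Apol10b and Hsd11b1 were at background, so their distances and order rest in part on values not above it. With 4 arrays, some of 10903 genes lie close to any profile, so the distances describe likeness only.

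**Figure D4:**
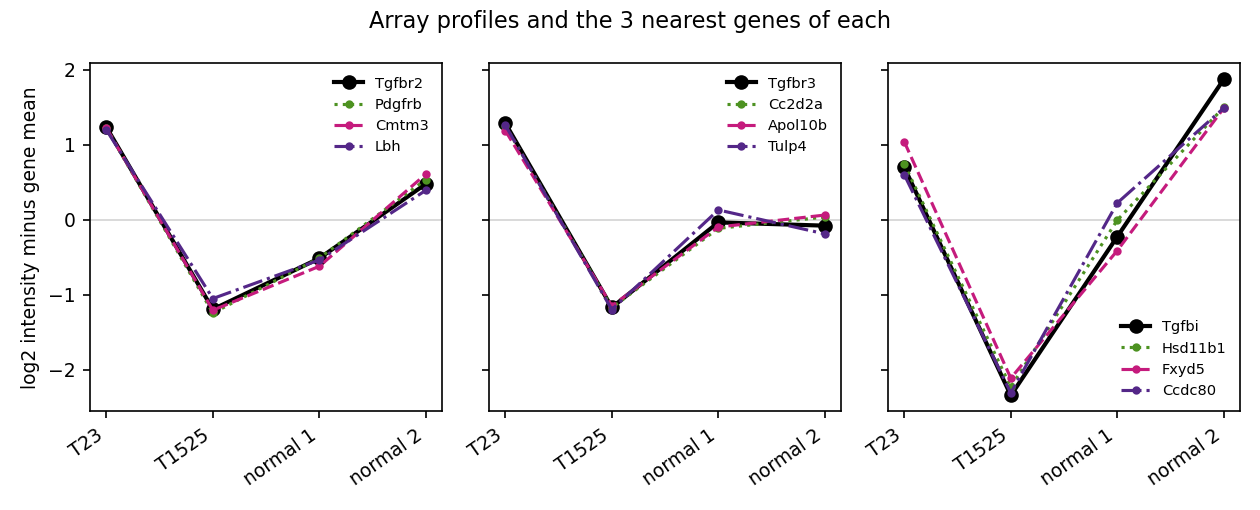
Log2 intensity minus the gene's mean over the 4 arrays (vertical axis) for Tgfbr2, Tgfbr3 and Tgfbi (black) and the 3 genes nearest to each (coloured), by array. All 3 profiles have their lowest point in T1525; Tgfbr2 and Tgfbr3 are highest in T23 and Tgfbi in normal 2.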

How the data were processed

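Biotinylated cRNA was hybridised to Illumina bead arrays, per the labels, and the submitters' processing notes list BeadStudio, without a version. How the values were normalized is likewise not given. The deposited intensities of 24613 probes are linear, and their sorted values differed between the 4 arrays by a median of 0.183%, so the arrays had nearly the same distribution as deposited. A further table, of signals before normalization, was not used: its 8 columns carry slide positions that no label ties to a sample, so background correction and slide blocks were not possible.

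Log2 intensities were tested with limma 3.58.1 (R 4.3.3; two-sided). Benjamini-Hochberg adjustment ran over 15767 probes above background on at least 1 array, with a threshold of 0.05. Background is the mode of the log2 values (6.12; density bandwidth 0.05) plus the distance to the 0.01 upper tail of a normal curve whose SD (0.247) comes from the values left of the mode, which gives 6.69. The class fit had 2 residual degrees of freedom, and the fit of 3 groups, for single lines, had 1. Each gene is given by its probe with the highest mean. Where an array was at background, folds set it to the threshold and are bounds. The fits were checked on simulated data with 200 changed probes, and missed most changes of 2 on the log2 scale. The fit of T23 alone against normal also missed most changes of 4. False calls made up a larger share of its simulated calls than the threshold of 0.05 sets. So few changed probes make the adjusted threshold stricter in the simulation than in the data. Figures used matplotlib 3.10.9 (Python 3.11.15). The genes and lists were chosen with earlier results of these data known. Named genes were all measured genes of the set, up to 3 per list by called class difference, up to 2 by line difference and the nearest profiles. Ltbp1, Grem1, Cdkn2b and Bhlhe40 were added after their values were seen, and marker genes were named to check the labels.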

Additional observations from a re-analysis of the deposited data

Results flagged for a closer look

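For 3 genes of the set T23 lay above and T1525 below both normal samples: the T23 minus T1525 difference was 1.33 for Tgfb2, 2.43 for Tgfbr2 and at least 1.89 for Tgfbr3 on the log2 scale. Of the other pathway genes named, the same held for Bgn (at least 6.16), Bmp3 (at least 2.73), Bmp4 (2.81) and Lox (at least 8.11), and for Ltbp1 (3.35), which was singled out after its values were seen. The lines were on the reverse sides, with T23 below and T1525 above both normal samples, for Acvr2b (-2.36), Id2 (-2.54), Ppm1a (-1.28) and Traf6 (-1.98), and for Cdkn2b (-4.02, a bound in size), also singled out afterwards. Genes chosen for a profile like that of Tgfbr2, Tgfbr3 or Tgfbi are not listed here. These differences between the lines were not tested, since each line has 1 array, and 13.7% of all genes measured had the lines on opposite sides of both normal samples.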

How the results depend on the processing

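Of 360 recomputed differences of the 8 genes, 350 kept their side of the threshold or moved within the spread of the normal pair, 3 lost and 3 gained a call, and 1 reversed; 13 changed sign, with or without a call. The remaining 3 were the Tgfbr3 difference T23 minus T1525, at 1.74 with cyclic loess, 1.70 with a stricter and 2.06 with a looser background tail. The count of 350 does not measure robustness. A change of filter, background tail or intensity trend leaves the difference from normal prostate as it was and can move only its p. When each probe was counted alone, the call of the second Tgfbr2 probe in T23, given above, was added to those of Tgfbr3 and Tgfbr1. The number of the 8 genes called in T23 was 1 with background values set to the threshold and 1 with the mean of a gene's probes, both times without Tgfbr1. In T1525 it was 2 with the filter at 2 or more arrays, when Tgfbi passed (adjusted p = 0.0479), 2 when each probe was counted alone, and 0 with background values set to the threshold. Leaving out arrays in turn, the class calls ranged from 0 to 2 among the 8 genes and from 0 to 39 among the other pathway genes, and the Tgfbr3 class difference from -1.11 to 1.34. Cyclic loess moved the median class difference over all probes to -0.04, against 0.19, and the share of higher calls to 36.3%, against 52.4%; under it the uncalled class differences of Tgfb3 (-0.15), Tgfbr2 (-0.09) and Tgfbr3 (-0.24) changed sign. Calls of single lines could not be fitted without a normal array, because no residual degree of freedom is left. The scaling on the median of the kept probes was chosen after seeing the data and moved none of these counts of genes called. Because the arrays had nearly the same distribution as deposited, scaling on a median could move values only a little, so its outcome is no check. No paired analysis was possible because the groups share fewer than 2 replicate numbers.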
